A study of Mus musculus with 34 samples.

Results

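Gene expression in the tracheal epithelium was compared between 6 months and 4 months after the end of exposure to NNK, a nicotine-derived nitrosamine of tobacco, across all genes measured. The comparison used the 5 libraries labelled 6 months and the 6 labelled 4 months, 11 of the 28 knockout libraries and of the 34 samples in all. Every one of the 11 mice was Gprc5a-/-, lacking an epithelial receptor whose loss favours lung tumours in mice. Each had been given NNK intraperitoneally at 50 mg/kg body weight, 3 times per week for 8 weeks, and gave 1 library from a brushing of the trachea. Per the study design, mice were followed until lung adenocarcinoma developed, which it places at 6 months. The age label, 6 to 8 weeks, is the same for all groups, so age at sampling is not given, and no unexposed mice of matched age entered the comparison. Age and time after NNK therefore cannot be told apart. The groups held 3 females and 3 males at 4 months and 3 females and 2 males at 6 months, read from sex-linked transcripts. Libraries are named below by the animal number of their label.

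The 6-month libraries were deeper, with 24.3 to 37.6 M estimated counts against 15.6 to 30.0 M (means 32.8 and 20.4 M, two-sided exact permutation test on log2 totals, p = 0.00866). The part of depth in the calls was not tested. The number of genes above 0 was alike in range, 18204 to 18894 against 17403 to 19082. The airway epithelial label was borne out by its markers, in CPM (counts scaled to a common library size) over the 11 libraries: the club cell secretoglobin Scgb1a1 was at 7400 to 31600 CPM, the ciliated cell regulator Foxj1 at 517 to 1440 and the basal keratin Krt5 at 159 to 570. Other cells were present too. The haemoglobin shares given next sum all haemoglobin entries, and Hbb-bt and Hbb-b2 have the same coordinates and counts (216946 each in 371). Reads may therefore be counted more than once in these shares. Haemoglobin transcripts took 25.5% of the counts of the 4-month animal 371 and 15.3% of those of the 6-month animal 349, against at most 3.06% in the others, and the group means did not differ beyond the spread (exact permutation p = 0.706). The ribosomal transcript Rn45s took 14.8% of the counts of the 6-month animal 365 and 7.68% of those of 366, against 2.04% to 3.36% at 4 months (means 6.28% and 2.9%, exact permutation p = 0.208). With haemoglobin genes and Rn45s left out of the table, 93 genes were called, 34 higher and 59 lower, against the 129 of the whole table given below. The thyroid gene Tg reached 146 CPM at 4 months and 169 CPM at 6 months, while the cartilage collagen Col2a1 stayed at or below 0.49 CPM. In bulk RNA, fewer cells of a type and less RNA per cell cannot be told apart.

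Chaperones hold proteins in a foldable state. In the cytosol, the heat shock factor Hsf1 raises the genes of the Hsp70, Hsp90 and Hsp40 families when proteins unfold. In the endoplasmic reticulum, where secreted and membrane proteins fold, the sensors Atf6 and Ire1 raise a second set through the unfolded protein response, and secretory airway cells depend on that set. The promoters shown are of 3 genes that fell and carry the element bound by Atf6, and of 1 that carries the heat shock element. They come from the unfolded protein response and from heat shock genes, on which the comparison turns. The 250 bases before the annotated start are printed 5′ to 3′ on the gene's strand, from RefSeq on GRCm38.p6, with capitals at the fixed letters of the element. Hspa5 lies at chr2:34771840-34772089 on the plus strand, Creld2 at chr15:88819396-88819645 on the plus strand, Syvn1 at chr19:6046326-6046575 on the plus strand, and Hspd1 at chr1:55087933-55088182 on the minus strand.
Hspa5: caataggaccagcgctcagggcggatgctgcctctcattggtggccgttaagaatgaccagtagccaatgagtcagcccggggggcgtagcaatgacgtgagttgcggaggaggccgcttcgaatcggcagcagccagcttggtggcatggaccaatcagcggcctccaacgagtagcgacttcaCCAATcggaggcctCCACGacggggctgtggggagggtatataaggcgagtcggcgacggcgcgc
Creld2: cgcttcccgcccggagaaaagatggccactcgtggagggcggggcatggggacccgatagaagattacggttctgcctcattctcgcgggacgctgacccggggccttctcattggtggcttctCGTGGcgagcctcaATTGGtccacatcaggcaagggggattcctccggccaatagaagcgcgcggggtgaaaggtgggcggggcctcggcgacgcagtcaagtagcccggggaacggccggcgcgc
Syvn1: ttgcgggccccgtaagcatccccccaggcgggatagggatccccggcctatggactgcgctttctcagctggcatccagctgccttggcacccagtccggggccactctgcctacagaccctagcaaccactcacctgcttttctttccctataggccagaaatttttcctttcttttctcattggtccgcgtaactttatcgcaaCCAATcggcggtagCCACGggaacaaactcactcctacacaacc
Hspd1: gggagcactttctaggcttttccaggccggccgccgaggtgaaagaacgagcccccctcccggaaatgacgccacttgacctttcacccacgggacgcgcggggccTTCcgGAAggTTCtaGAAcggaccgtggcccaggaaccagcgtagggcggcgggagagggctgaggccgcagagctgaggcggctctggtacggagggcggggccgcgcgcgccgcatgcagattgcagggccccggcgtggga
The ER stress element was searched as CCAAT, any 9 bases and CCACG, and the heat shock element as GAA, any 2 bases, TTC, any 2 bases and GAA, on both strands. The element begins 65 bases before the start of Hspa5, 126 before that of Creld2 and 44 before that of Syvn1, and in Creld2 it is on the opposite strand. In Hspd1, 2 matches on opposite strands overlap, beginning 144 and 139 bases before the start. Of the 11065 promoters of tested genes with a sequence, 0.145% hold the ER stress element and 0.325% the heat shock element. Among members of the unfolded protein response list, 7 of the 19 with a sequence hold the first. Of these 7, only 2 were called, Hspa5 and Creld2. Hsp90b1, Calr, Canx, Pdia6 and Dnajc3 hold it and were not called, while Dnajb11 was called and does not hold it. Among members of the heat shock list, 2 of 12 hold the second, and these are Hspd1 and its neighbour Hspe1, which share the stretch between them. Hspe1 was not called, and of the 6 called members with a sequence only 1, Hspd1, holds it. A shorter form, GAA, any 2 bases and TTC, is held by 6 of the 12, against 5.04% of all promoters. These are the called Hspa1b, Dnaja1 and Hspd1 and the uncalled Hspa1a, Hspb1 and Hspe1. A match describes letters in this window only.

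Across the transcriptome, 129 of 14847 genes differed between the groups by edgeR's quasi-likelihood test with Benjamini-Hochberg adjustment at a threshold of 0.05, which is 0.869%. Of these, 43 rose from 4 to 6 months (0.290%) and 86 fell (0.579%), 23 and 30 of them at least 2-fold. At an unadjusted p under 0.05 there were 886 higher genes (5.97%) and 1222 lower genes (8.23%). The genes that fell included 4 of 21 members of the unfolded protein response list and 8 of 15 of the cytosolic heat shock list, and those that rose included 3 of 16 of the skeletal muscle list. The number of called genes depended on single libraries. Without the 4-month animal 336 no gene passed, although 1588 had an unadjusted p under 0.05, and without the 6-month animal 366 no gene passed (2001 unadjusted). It was 5 without 335, 25 without 340, 68 without 371, 10 without 341, 9 without 365 and 10 without 368, against 267 without 377 and 239 without 349. A fit of the 11 libraries alone called 0 genes, with 2567 at an unadjusted p under 0.05, while DESeq2 on all 28 called 430. In the volcano plot the chaperone lists lie to the left and the muscle list to the right.

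**Figure D1:**
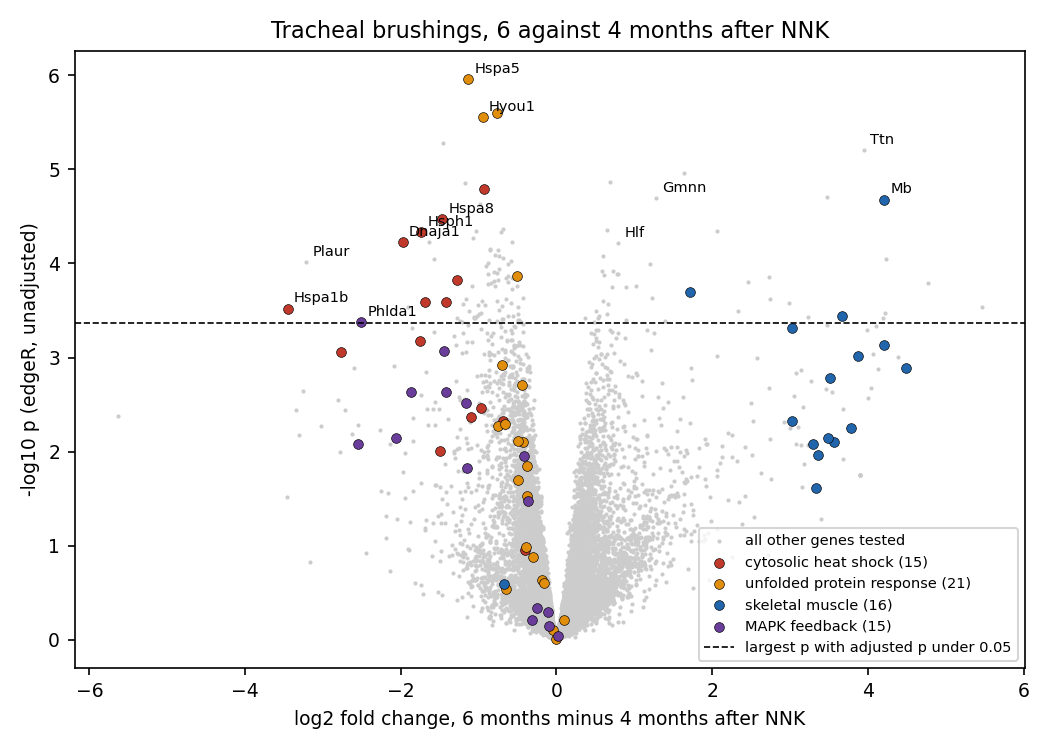
Each point is 1 of 14847 genes, with the log2 fold change of 6 against 4 months on the x axis and -log10 of the unadjusted edgeR p on the y axis; colours mark 4 gene lists. All 15 heat shock genes lie left of 0 and 15 of 16 skeletal muscle genes lie right of 0, and the dashed line is the largest p that passed the adjustment.

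Animal 336 had the highest 4-month level of 66 of the 86 genes that fell, and its library was the smallest, at 15.6 M counts. Animal 349 had the lowest 6-month level of 32 of the 43 genes that rose. Both libraries are therefore given by name beside the values that follow, with results of fits without them. Leaving out any library also lowers the sample number, so these fits do not isolate the part of either in the calls.

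Of the 21 measured members of the unfolded protein response list, 4 fell and none rose, against 0.579% and 0.290% of all genes, 20 had a log2 fold change below 0, and the median was -0.45 against 0 for all genes. The summed level of the list was 3880 to 5890 CPM at 4 months, with a median of 4485, and 3030 to 3810 CPM at 6 months, so that the groups did not overlap. Leaving out 336 and 349 left them apart, at 3880 to 5720 and 3030 to 3810 CPM. Among single members, 4 did not overlap, being lower at 6 months, against 1.52% of all genes tested.

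Hspa5, the Hsp70 chaperone of the endoplasmic reticulum also called BiP (chr2:34772090-34776530), had the smallest p of the comparison. At 4 months it ranged from 552 to 1228 CPM with a median of 719, and at 6 months it was 323, 396, 488, 356 and 305 CPM in animals 341, 349, 365, 366 and 368. Every 6-month library was below every 4-month library, the nearest being 365 and the 4-month animal 340. The log2 fold change was -1.13 ± 0.18 (SE, n = 5 and 6, edgeR's quasi-likelihood test, Benjamini-Hochberg adjusted p = 0.0138). Without 336 it was -0.98 and no longer passed. In the other knockout groups Hspa5 was at 457 to 778 CPM before exposure, 517 to 736 at its end and 872 to 1316 at 2 months.

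Hyou1, an Hsp110-type partner that exchanges nucleotide on Hspa5 (chr9:44379490-44392370), ranged from 177 to 277 CPM at 4 months with a median of 183. At 6 months it was 92.9, 125, 111, 115 and 98.9 CPM. The groups were well apart, and 336 and 371 were the high 4-month libraries. Hyou1 fell by a log2 fold change of -0.95 ± 0.16 (SE; edgeR adjusted p = 0.0138). Creld2, a resident protein of the same compartment that is induced when folding fails (chr15:88819646-88826682), ranged from 82.4 to 127 CPM with a median of 89.9 and was then at 51.8, 63.4, 69.4, 53.4 and 46.5 CPM. Its highest library was 371, not 336, and the groups again did not overlap. The log2 fold change of Creld2 was -0.76 ± 0.13 (edgeR adjusted p = 0.0138). In the knockout mice before exposure, Hyou1 was at 103.1 to 174.5 CPM and Creld2 at 50.1 to 77.3 CPM.

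Dnajb11, a co-chaperone that delivers clients to Hspa5 (chr16:22857845-22872466), was the fourth member to fall. It ranged from 68.6 to 92.0 CPM at 4 months and from 44.0 to 65.6 CPM at 6 months, without overlap (log2 fold change -0.50 ± 0.11, edgeR adjusted p = 0.0386). Syvn1, the ubiquitin ligase Hrd1 that removes misfolded proteins from the endoplasmic reticulum (chr19:6046576-6053719), is outside the list. It ranged from 59.4 to 189 CPM with a median of 109 at 4 months, and was 38.03, 59.1, 61.0, 59.2 and 35.4 CPM at 6 months. The groups overlapped through the 4-month animal 377 alone. Syvn1 fell by a log2 fold change of -1.17 ± 0.22 (edgeR adjusted p = 0.0258). Other members did not pass the test: the endoplasmic reticulum Hsp90 Hsp90b1 had a log2 fold change of -0.38 (edgeR adjusted p = 0.283), and the transcription factor Xbp1 one of -0.30 (0.520). Crebrf, a nuclear protein that restrains CREB3-type regulators of this response, moved the other way and rose from 13.7 to 37.6 CPM at 4 months to 32.3 to 60.1 CPM at 6 months (log2 fold change 0.89 ± 0.21, edgeR adjusted p = 0.0386).

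The cytosolic heat shock list had the highest share of called falls of the 63 lists. All 15 measured members had a log2 fold change below 0, and the median was -1.47. Of these 8 fell and none rose, against 0.579% and 0.290% of all genes. The summed level was 4590 to 21400 CPM at 4 months with a median of 6625, and 4080, 4020, 3480, 3060 and 3590 CPM at 6 months. The highest value, in 336, was more than that of any other library, yet without 336 and 349 the ranges were still apart, at 4590 to 9320 and 3060 to 4080 CPM. The 6-month sums were also below those of the mice before exposure (6740 to 9710 CPM), at its end (4860 to 7310) and at 2 months (6590 to 11000). Animal 336 was the highest 4-month library for all 15 genes, and without it the median was -0.87 and no member passed.

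Hsp90ab1, the constitutive cytosolic Hsp90 (chr17:45567778-45573262), was the most abundant of the genes that fell here. It ranged from 1754 to 3950 CPM at 4 months with a median of 2008, and was 1528, 1212, 1064, 1291 and 985 CPM at 6 months. No 6-month library reached the lowest 4-month one. The log2 fold change was -0.93 ± 0.18 (edgeR adjusted p = 0.0259), and -0.71 without 336.

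Hspa8, the constitutive cytosolic Hsp70 (chr9:40801273-40805200), ranged from 793 to 3748 CPM with a median of 1481, and was then at 608, 873, 709, 394 and 567 CPM. The groups overlapped only between the 4-month animal 340 and the 6-month animal 349. Hspa8 fell by a log2 fold change of -1.47 ± 0.30 (edgeR adjusted p = 0.0345), or -1.09 without 336. Hsph1, an Hsp110 that works with Hspa8 (chr5:149616845-149636316), ranged from 212 to 1418 CPM with a median of 373 and was then at 198, 164, 133, 103 and 190 CPM. It did not overlap between groups, and 336 stood above the other 4-month libraries, which reached 447 CPM. The log2 fold change of Hsph1 was -1.73 ± 0.36 (edgeR adjusted p = 0.0345), and -1.13 without 336.

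Dnaja1, an Hsp40 co-chaperone (chr4:40722468-40737152), ranged from 108 to 912 CPM with a median of 170 at 4 months and was 62.4, 89.8, 78.7, 54.8 and 89.8 CPM at 6 months. No 6-month library reached the 4-month range, and the log2 fold change was -1.97 ± 0.41 (edgeR adjusted p = 0.0360). Hspa1b, a stress-inducible Hsp70 (chr17:34956429-34959239), ranged from 120 to 3138 CPM with a median of 209 and was then at 22.2, 111, 154, 49.4 and 40.0 CPM. Here the 2 highest 4-month libraries, 336 and 335, stood apart at 3138 and 1141 CPM, and the other 4, at 120 to 276 CPM, overlapped with the 6-month range. Its log2 fold change was -3.45 ± 0.82 (edgeR adjusted p = 0.0487), and -2.27 without 336. Hspa1b and its near-identical copy Hspa1a (log2 fold change -2.76, edgeR adjusted p = 0.0661) can share reads, so their separate values are uncertain.

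Of the other members, the mitochondrial chaperonin Hspd1, the co-chaperone Bag3 and the Hsp90 partner Chordc1 also fell, by -1.42, -1.69 and -1.28 on the log2 scale (edgeR adjusted p = 0.0472, 0.0472 and 0.0386). Dnajb1, an inducible Hsp40, did not pass (log2 fold change -1.75, adjusted p = 0.0582). Beyond the list, 3 further Hsp70 and Hsp90 co-chaperones fell. Stip1, which bridges both chaperones, ranged from 189 to 551 CPM at 4 months and from 117 to 158 CPM at 6 months, without overlap (log2 fold change -1.03 ± 0.21, edgeR adjusted p = 0.0345). St13 and Ahsa2 had log2 fold changes of -0.81 and -1.12 (edgeR adjusted p = 0.0386 and 0.0492) and, like Hspd1, a 4-month maximum in 336 that stood clear of the other libraries.

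**Figure D2:**
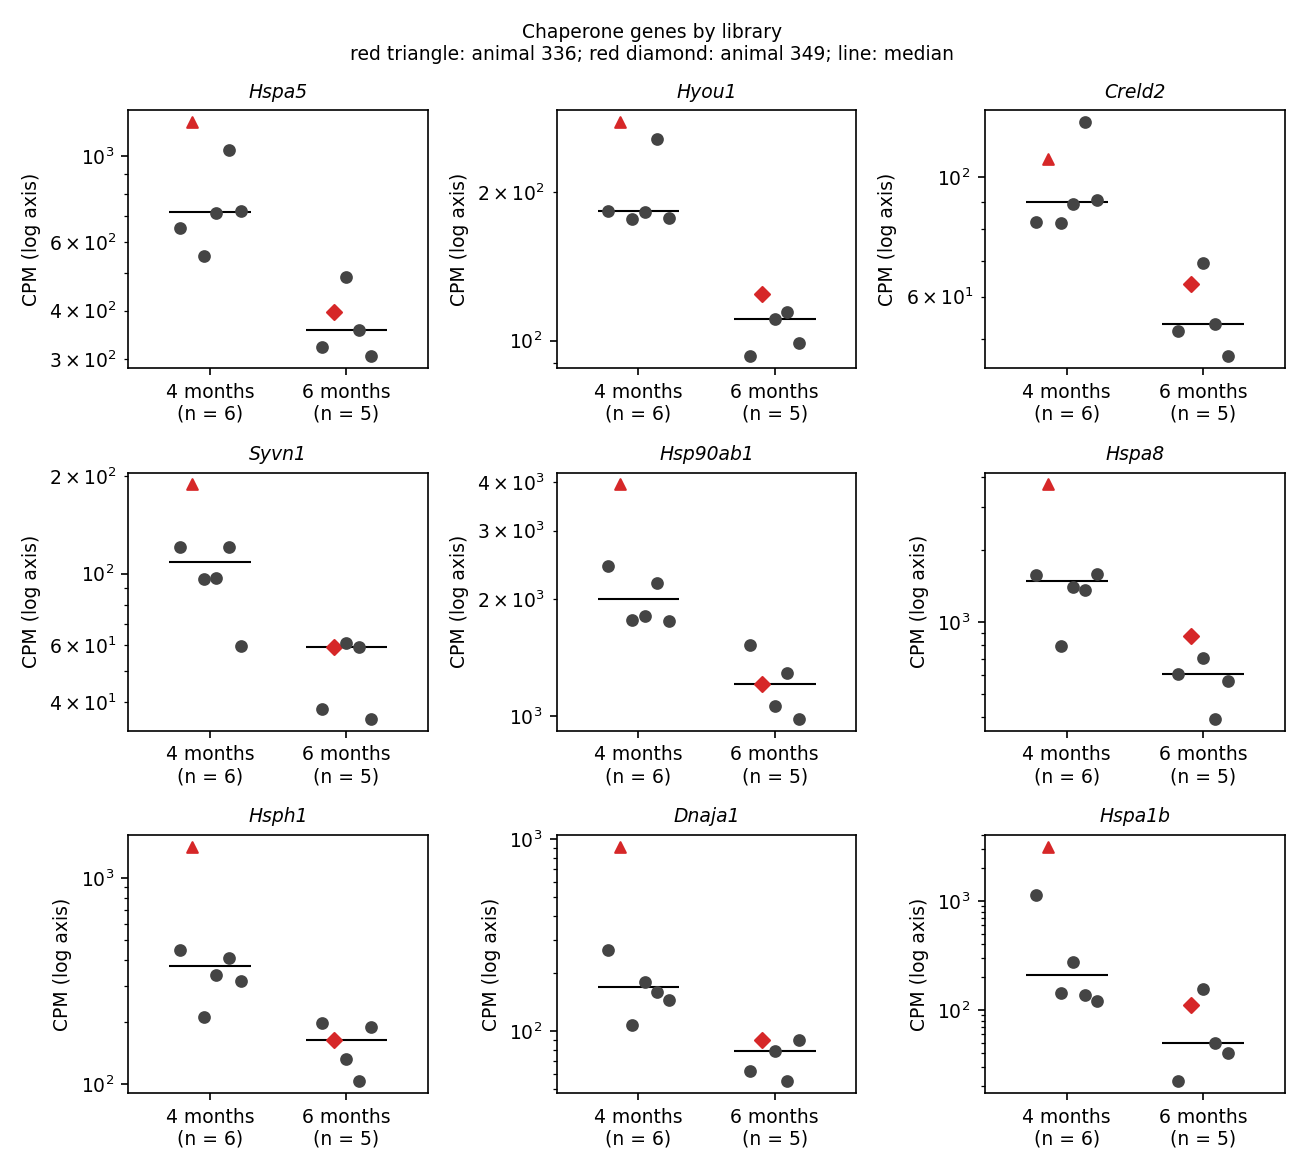
Each point is 1 library, with CPM on a log axis, for 9 chaperone and other protein-folding genes at 4 months (n = 6) and 6 months (n = 5). The line is the median. Animal 336 (red triangle) is the highest 4-month library in every panel but that of Creld2, and no 6-month point reaches the lowest 4-month point in the panels other than those of Syvn1, Hspa8 and Hspa1b.

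The MAPK feedback list holds genes that growth factor signalling through Erk induces, some of which restrain it. Of its 15 members 1 fell and none rose, against 0.579% and 0.290% of all genes. In this list 10 were lower at an unadjusted p under 0.05 (8.23% of all genes were), and the median was -1.14. The summed level of the list in 336 was 2670 CPM, against 415 to 935 CPM in the other 4-month libraries and 352 to 628 CPM at 6 months. The 1 called member, Phlda1 (chr10:111506286-111508650), ranged from 35.3 to 740 CPM at 4 months with a median of 70.2, and was 20.6, 41.0, 64.1, 21.2 and 27.8 CPM at 6 months. Animals 336 and 335 were the high libraries, at 740 and 229 CPM, and the others overlapped with the 6-month group. The log2 fold change was -2.51 ± 0.62 (edgeR adjusted p = 0.0492), and -1.38 without 336. Etv5, an Erk-induced transcription factor, did not overlap between groups (4.94 to 14.0 and 2.14 to 4.93 CPM) but did not pass (edgeR adjusted p = 0.0661).

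None of the 13 measured EGFR ligands and ERBB receptors passed, and 6 were lower at an unadjusted p under 0.05, against 8.23% of all genes. The ligand Areg had a log2 fold change of -2.72 (edgeR adjusted p = 0.115), with 192 CPM in 336 and 4.89 to 39.4 CPM in the other 4-month libraries. The ligand Hbegf had one of -2.80 (edgeR adjusted p = 0.105), with 422 CPM in 336, and -0.72 without that library. The receptor Egfr had one of 0.04 (edgeR adjusted p = 0.963).

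Plaur, the urokinase receptor of the cell surface (chr7:24462500-24475874), was among the largest falls. It ranged from 30.9 to 793 CPM at 4 months with a median of 85.6 and was 19.9, 28.8, 37.5, 13.9 and 20.7 CPM at 6 months. Animals 336 and 335 were high, at 793 and 307 CPM, and the only overlap was between the 4-month animal 377 and the 6-month animal 365. Plaur fell by a log2 fold change of -3.22 ± 0.69 (edgeR adjusted p = 0.0386), or -2.21 without 336, when it did not pass. Sfn, the epithelial 14-3-3 protein sigma (chr4:133600556-133602169), had a similar order of libraries, with 1589 and 458 CPM in 336 and 335, a 4-month median of 280 CPM, and 69.4, 156, 224, 136 and 81.4 CPM at 6 months. Its log2 fold change was -1.90 ± 0.46 (edgeR adjusted p = 0.0474).

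Of the 19 members of the NF-kB list 1 fell (5.26%, against 0.579% of all genes), Nfkb2, a subunit of the non-canonical branch (chr19:46304737-46312091), which ranged from 48.6 to 106 CPM at 4 months with a median of 66.1 and was 24.3, 42.5, 43.6, 35.2 and 33.9 CPM at 6 months. The groups did not overlap (log2 fold change -0.97 ± 0.24, edgeR adjusted p = 0.0492). Nfkb2 was at 34.95 to 44.56 CPM in the knockout mice before exposure. Bcl3, a nuclear partner of such subunits (chr7:19808462-19822756), ranged from 29.6 to 160 CPM with a median of 67.7 and was then at 15.2, 34.2, 36.0, 23.4 and 18.5 CPM. It overlapped only through the low 4-month animal 377 (log2 fold change -1.64 ± 0.34, edgeR adjusted p = 0.0360). Among 28 interferon-stimulated genes 1 fell (3.57%, against 0.579% of all genes), Stat2, part of the interferon-activated complex (chr10:128270576-128292850), from 53.1 to 100 CPM to 36.0 to 49.2 CPM, without overlap (log2 fold change -0.88 ± 0.20, edgeR adjusted p = 0.0386). The adhesion receptor Icam1 and the interleukin 4 receptor chain Il4ra fell by log2 fold changes of -1.02 and -0.90 (edgeR adjusted p = 0.0492 and 0.0386).

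The following single genes, apart from Ccnd1 and Ccnd2, are in none of the 63 lists, and all but Ccnd2 were named after their values were seen. Actb and Actg1, the cytoplasmic actins, had log2 fold changes of -1.01 and -0.88 (edgeR adjusted p = 0.0473 and 0.0386), and as near-identical genes they can share reads. Ezr, which ties actin to the apical membrane, ranged from 1229 to 2671 CPM at 4 months and 810 to 1288 CPM at 6 months (log2 fold change -0.75 ± 0.17, edgeR adjusted p = 0.0386). Myh9, non-muscle myosin, ranged from 487 to 686 CPM and then from 299 to 460 CPM, without overlap (log2 fold change -0.64 ± 0.15, edgeR adjusted p = 0.0466). The laminin receptor chain Itga3 had a log2 fold change of -0.75 (edgeR adjusted p = 0.0384). The D-type cyclins Ccnd2 and Ccnd3, which open the cell cycle, fell by log2 fold changes of -0.73 and -0.62 (edgeR adjusted p = 0.0499 and 0.0386). Ccnd1 did not pass (-0.35, edgeR adjusted p = 0.364). Ccnd2 was at 195.5 to 330.3 CPM before exposure, 331.2 to 563.7 CPM at 4 months and 173.4 to 402.9 CPM at 6 months. None of 23 mitotic genes passed, 21 had a log2 fold change below 0, and their median was -0.25. Polr2a, the largest subunit of RNA polymerase II, ranged from 149 to 246 CPM and then from 89.8 to 135 CPM, without overlap (log2 fold change -0.79 ± 0.17, edgeR adjusted p = 0.0386).

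**Figure D3:**
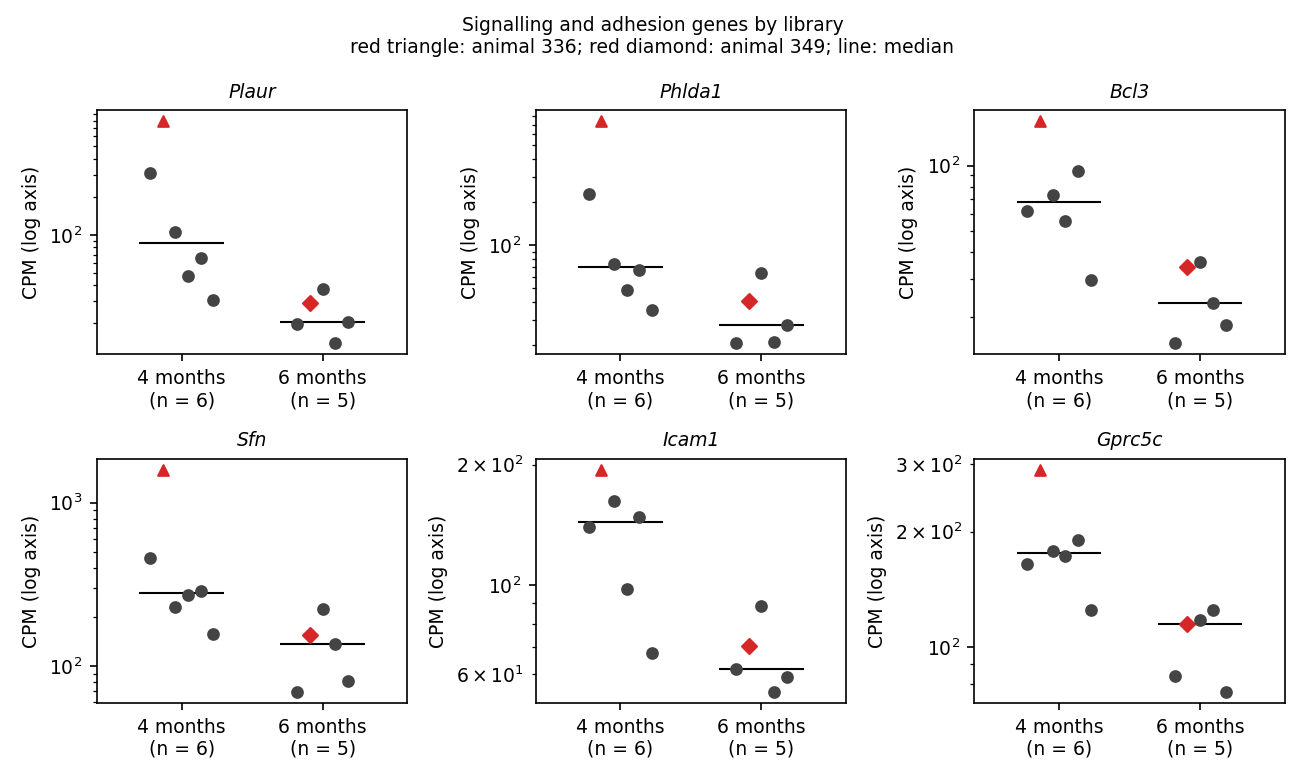
Each point is 1 library, with CPM on a log axis, for 6 signalling and adhesion genes at 4 months (n = 6) and 6 months (n = 5); the line is the median. Animal 336 (red triangle) is the highest 4-month library in each panel, at 793 CPM for Plaur against 13.9 to 37.5 CPM at 6 months.

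Gprc5c, an orphan receptor of the family of the deleted gene (chr11:114851532-114872618), ranged from 125 to 290 CPM at 4 months with a median of 176 and was 83.9, 115, 117, 125 and 76.1 CPM at 6 months. The lowest 4-month library stood just above the highest 6-month library. Knockout mice before exposure had 76.41 to 124.7 CPM. Gprc5c fell by a log2 fold change of -0.85 ± 0.18 (edgeR adjusted p = 0.0384). The deleted gene Gprc5a was at 0.288 to 3.11 CPM at 4 months and 0.115 to 1.51 CPM at 6 months, and did not differ beyond the spread (log2 fold change -0.46 ± 0.64, edgeR adjusted p = 0.818). Its direction reversed without 336 (0.08).

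Among the genes that rose, those of striated muscle had the largest fold changes. Skeletal muscle fibres make their own isoforms of actin, myosin, troponin and energy enzymes, which airway epithelial cells largely lack. Of 16 measured members of the skeletal muscle list 3 rose, Mb, Eno3 and Cox6a2, and none fell, against 0.290% and 0.579% of all genes. In this list 15 were higher at an unadjusted p under 0.05 (5.97% of all genes were), and the median log2 fold change was 3.50. The summed level was 40.2 to 170 CPM at 4 months with a median of 129.5, and 941, 44.2, 528, 2490 and 1310 CPM at 6 months. All 6-month libraries but 349 were above every 4-month library and 349 lay within the 4-month range, so that no member separated the groups. The defining markers Acta1, Ckm and Mylpf were above 0 in all 11 libraries.

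Mb, the oxygen store myoglobin (chr15:77015487-77022788), ranged from 0.552 to 4.41 CPM at 4 months with a median of 2.71 and was 32.8, 1.41, 21.6, 45.9 and 128 CPM at 6 months. Animal 349 alone stayed low. The log2 fold change was 4.21 ± 0.81 (edgeR adjusted p = 0.0259). Ttn, the titin filament of the sarcomere (chr2:76703984-76982548), ranged from 1.06 to 5.41 CPM with a median of 3.11 and was then at 50.3, 1.59, 26.7, 96.3 and 87.6 CPM, with the same library low. Its log2 fold change was 3.95 ± 0.70 (edgeR adjusted p = 0.0187).

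Outside the list, several rises were of sarcomere and muscle energy genes that were named by the rule or after their values were seen. Neb, nebulin of the thin filament, rose by a log2 fold change of 3.48 (edgeR adjusted p = 0.0259), and Xirp2 and Cmya5, proteins of the sarcomere, by 4.24 and 2.06 (edgeR adjusted p = 0.0386 and 0.0345). The mitochondrial creatine kinase Ckmt2 and the translation factor of muscle and nerve Eef1a2 rose by 5.46 and 4.19 (edgeR adjusted p = 0.0474 and 0.0492). Pfkm, the muscle phosphofructokinase, ranged from 6.87 to 9.20 CPM at 4 months and from 7.90 to 42.8 CPM at 6 months (log2 fold change 1.64 ± 0.31, edgeR adjusted p = 0.0258). The muscle creatine kinase Ckm, a defining marker, did not pass (log2 fold change 3.79, edgeR adjusted p = 0.138), with 0.408 to 16.9 CPM and 1.13 to 319 CPM. With the summed muscle level as a covariate no gene passed, with 1263 at an unadjusted p under 0.05, and the median of the heat shock list was -1.35 and that of the unfolded protein response list -0.37. The part of muscle in the other calls was otherwise not tested.

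**Figure D4:**
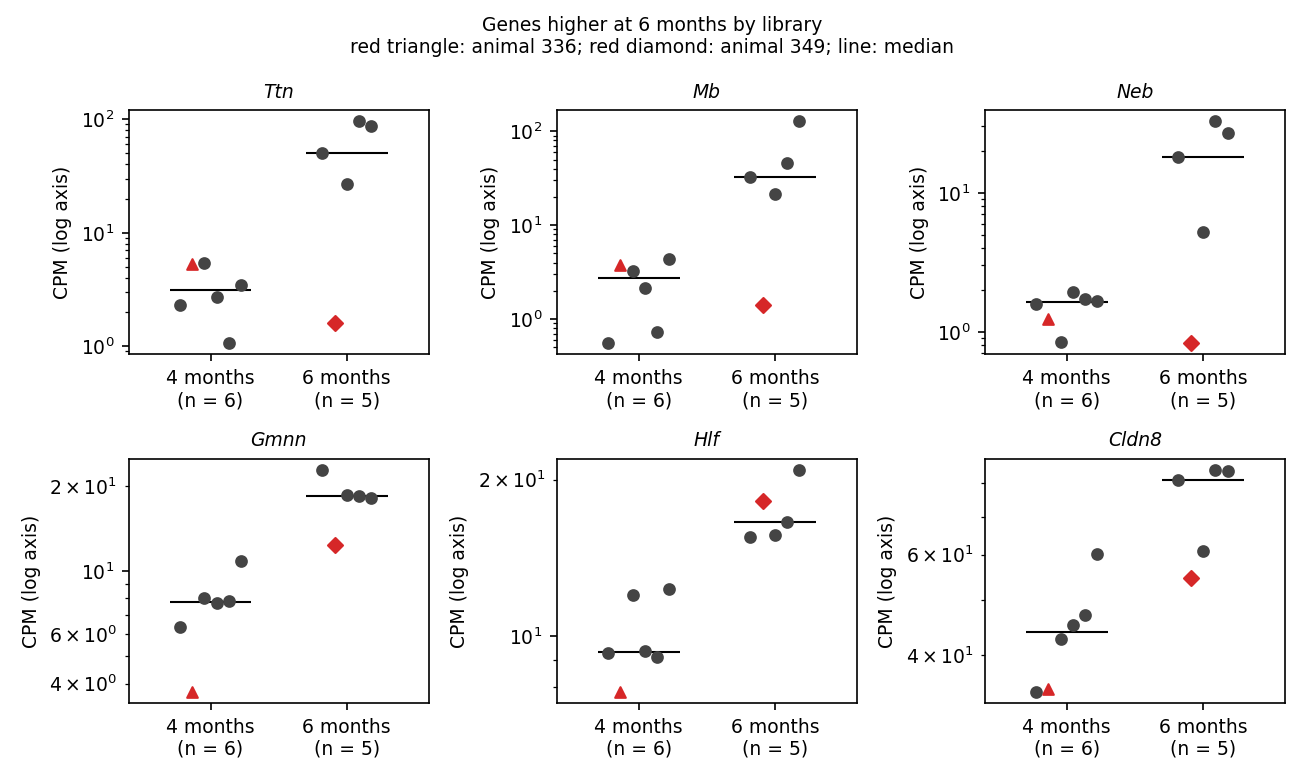
Each point is 1 library, with CPM on a log axis, for 6 genes that rose, at 4 months (n = 6) and 6 months (n = 5); the line is the median. For Ttn, Mb and Neb the 6-month animal 349 (red diamond) lies among or below the 4-month libraries, while for Gmnn and Hlf every 6-month library is above every 4-month library.

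Other genes that rose are not specific to muscle. Gmnn, geminin, which blocks a repeat start of DNA replication and whose family acts in ciliated cells (chr13:24751845-24761938), ranged from 3.74 to 10.9 CPM at 4 months with a median of 7.79 and was 22.8, 12.4, 18.5, 18.4 and 18.04 CPM at 6 months. Every 6-month library was above every 4-month one, as in 1.00% of all genes tested. Gmnn rose by a log2 fold change of 1.28 ± 0.25 (edgeR adjusted p = 0.0259). Hlf, a clock-output transcription factor (chr11:90336535-90390918), ranged from 7.82 to 12.3 CPM with a median of 9.33 and was then at 15.5, 18.2, 15.6, 16.6 and 20.9 CPM, again without overlap (log2 fold change 0.80 ± 0.17, edgeR adjusted p = 0.0360). The related output gene Dbp had a log2 fold change of 1.31 and did not pass (edgeR adjusted p = 0.270), and the hours of sampling are not given.

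Lrig1, a membrane protein that lowers ERBB receptor levels (chr6:94604529-94700146), rose from 100 to 174 CPM at 4 months to 194 to 260 CPM at 6 months, without overlap (log2 fold change 0.61 ± 0.14, edgeR adjusted p = 0.0386). Adh7, an epithelial alcohol and retinol dehydrogenase, ranged from 223 to 408 CPM and then from 371 to 584 CPM (log2 fold change 0.66 ± 0.16, edgeR adjusted p = 0.0472). The tight junction protein Cldn8 (log2 fold change 0.73 ± 0.16, edgeR adjusted p = 0.0386) and the mucosal chemokine Ccl28 (1.39 ± 0.35, 0.0492) rose, and both overlapped between groups. Pdcd4, an inhibitor of translation initiation, rose without overlap, from 21.4 to 37.2 CPM to 39.6 to 61.2 CPM (log2 fold change 0.79 ± 0.18, edgeR adjusted p = 0.0386).

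Among further genes that fell was Hk2, a hexokinase, the enzyme of the first step of glycolysis (chr6:82725027-82774455). It ranged from 36.0 to 87.8 CPM at 4 months with a median of 46.3 and was 26.3, 28.6, 27.2, 29.5 and 31.5 CPM at 6 months. The groups did not overlap, and the log2 fold change was -0.88 ± 0.19 (edgeR adjusted p = 0.0386). Before exposure Hk2 was at 21.03 to 36.75 CPM in the knockout mice. Hk2 was the only called gene of the 20 in the hypoxia and glycolysis list, against 0.579% falls among all genes. The median of that list was -0.03. Sh3rf1, a scaffold and ubiquitin ligase of Jnk signalling (chr8:61224171-61396073), ranged from 33.2 to 84.1 CPM and then from 18.6 to 30.4 CPM, without overlap (log2 fold change -0.98 ± 0.19, edgeR adjusted p = 0.0268). Rai14, an actin-bundling protein, was at 29.3 to 54.7 CPM and then 21.5 to 25.1 CPM, again without overlap (log2 fold change -0.69 ± 0.14, edgeR adjusted p = 0.0345). Ccdc134, a small secretory-pathway protein, had 24.4 to 32.9 CPM and 13.4 to 23.03 CPM (log2 fold change -0.71 ± 0.15, edgeR adjusted p = 0.0345), and 336 was not its highest library. The unnamed transcript 4732471J01Rik fell by a log2 fold change of -1.46 (edgeR adjusted p = 0.0187).

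On the higher side, Vmac, a vimentin-binding protein (chr17:56713932-56717700), ranged from 22 to 41.3 CPM at 4 months with a median of 35.9 and was 51.9, 43.4, 64.1, 63.1 and 50.2 CPM at 6 months. Every 6-month library was above every 4-month one, with 336 the lowest of all (log2 fold change 0.69 ± 0.13, edgeR adjusted p = 0.0258). Wdr45, a protein of autophagosome formation on the X chromosome, was at 16.9 to 26.8 CPM and then 27.03 to 38.6 CPM, without overlap (log2 fold change 0.65 ± 0.13, edgeR adjusted p = 0.0345). Acads, which starts the oxidation of short-chain fatty acids in mitochondria, rose by a log2 fold change of 0.60 ± 0.13 (edgeR adjusted p = 0.0386). Hspb6, a small heat shock protein abundant in muscle, is not in the heat shock list and rose from 6.23 to 9.39 CPM to 11.2 to 26.8 CPM (log2 fold change 1.21 ± 0.27, edgeR adjusted p = 0.0386).

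Among lists of airway cell types, none of the 15 club cell and 30 ciliated cell genes measured passed, with medians of 0.23 and -0.14, and their summed levels overlapped between groups. Of 18 basal cell genes 1 fell, Icam1, against 0.579% of all genes, and the list median was -0.09. The summed level of the basal list in 336 was 6680 CPM, above the 2190 to 3260 CPM of the other 4-month libraries. All 10 tuft cell genes measured had a log2 fold change below 0, with a median of -0.67, and none passed. None of the 15 cytochrome P450 genes passed, 6 were higher at an unadjusted p under 0.05 (5.97% of all genes were), and the median was 0.41.

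**Figure D5:**
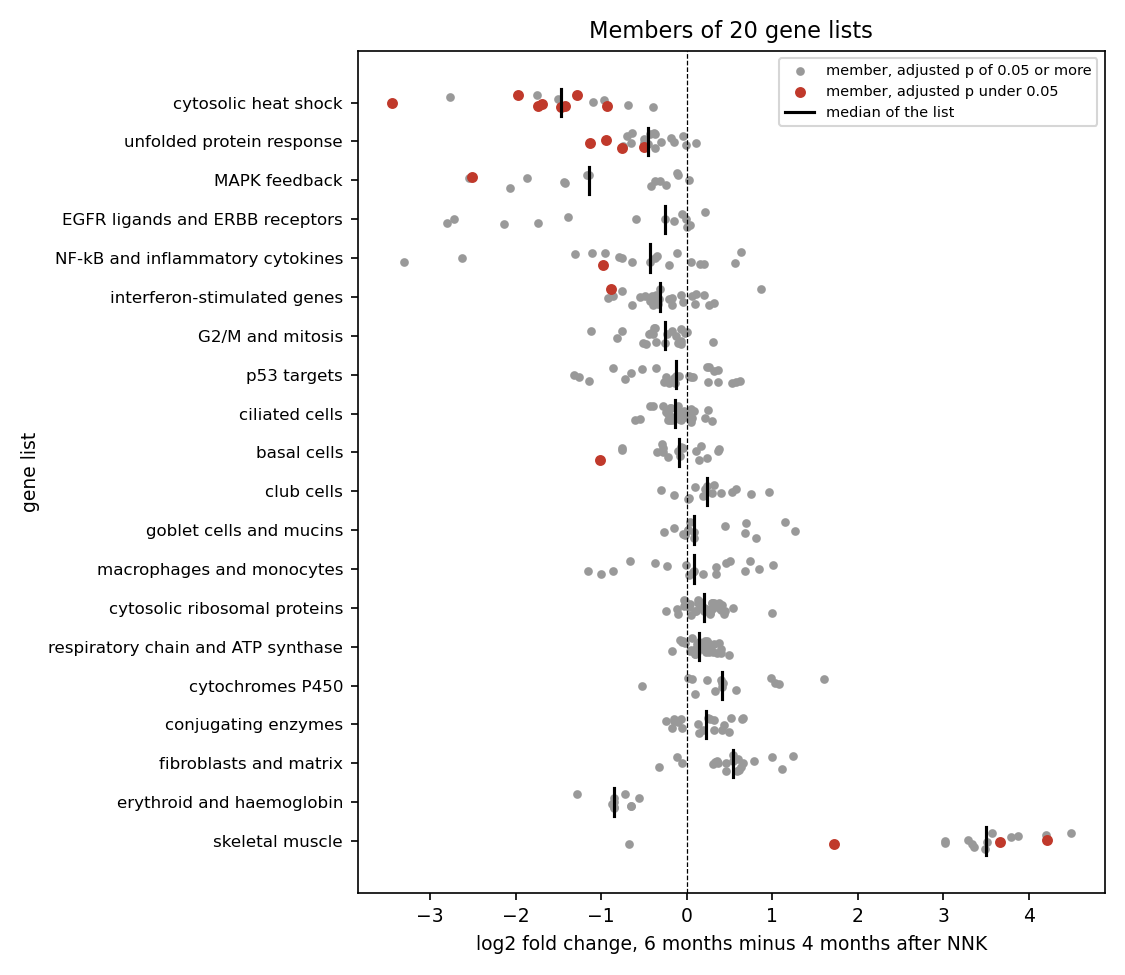
Each point is 1 gene of 20 gene lists, with the log2 fold change of 6 against 4 months on the x axis, red where the adjusted p was under 0.05; black bars are list medians. The heat shock median lies at -1.47 and the skeletal muscle median at 3.50, while the club and ciliated cell medians lie at 0.23 and -0.14.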

How the data were processed

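Per the labels' protocols, tracheal brushing RNA of integrity 7 or above went into poly-A libraries for an Ion Proton. The table deposited by the authors is named for RPKM but holds estimated counts per gene: whole numbers (tolerance 0.01) made up 76.3% of nonzero values, and library totals differed. Per the submitters' processing notes, STAR 2.4.1d, Bowtie2 2.1.0, Partek and mm10 were used. Their roles, and how strand or shared reads were treated, are not given in the sources used here. Wild-type samples were not used.

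Estimated counts were rounded. A gene entered the fit if it reached 1 CPM in 5 or more libraries (14847 of 24223), and TMM scaled the counts. In edgeR 4.0.16 under R 4.3.3, a robust, two-sided quasi-likelihood test was fitted with a mean per group over all 28 knockout libraries, a 6 minus 4 month contrast, 23 residual degrees of freedom before moderation and Benjamini-Hochberg adjustment over all genes. SE was the log2 fold change over the root of F. CPM are TMM-scaled. Each mouse gave 1 library, per the series design.

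The 63 gene lists and the rule for named genes were chosen with earlier results of these data known, and lists have counts and medians only. The rule took the 12 rises and 12 falls of smallest p, the 6 largest of each at a group mean of at least 5 CPM, the 3 called members of smallest p per list, and Gprc5a, in all 43 genes, and 28 more were named after their values were seen. Alternatives were other scalings, filters and sample sets, sex as a covariate, limma 3.58.1, DESeq2 1.42.0, and leaving out each library. The fit was tested on simulated data, where it found 16.4% of 1.5-fold, 55.2% of 2-fold and 89.4% of 4-fold changes, with 9 false calls. A gene that did not pass can therefore still have changed. Apart from the set changes, simulated counts were drawn around a common mean per gene, without an outlying library or an admixture of other cells. The simulated rates may therefore not hold for the real libraries. Python 3.11.15 with pandas 2.3.3, scipy 1.17.1 and matplotlib 3.10.9 made tables and plots.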

Additional observations from a re-analysis of the deposited data

Results flagged for a closer look

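A library stood far from the rest of its group for 6 values among the 156 groups of values checked. These groups covered named genes, list sums and library measures. Chance flags about 1 in 20 groups, and the number flagged here was below that rate. Animal 336 at 4 months was far above the others for Hspd1 (460 CPM), Hspe1 (129 CPM), St13 (158 CPM) and Ahsa2 (193 CPM). Animal 340 was far above the other 4-month libraries for Eno3 (15.7 CPM). Animal 341 was far below the other 6-month libraries for Il4ra (41.1 CPM).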

How the results depend on the processing

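The counts of genes called, risen and fallen moved with most choices. They were 56, 10 and 46 with library totals alone, 16, 6 and 10 with no filter beyond 1 count, 430, 152 and 278 with DESeq2, 71, 23 and 48 with limma on log2(CPM + 1), 49, 12 and 37 on log2(CPM + 0.1), 316, 132 and 184 with limma-voom quality weights, and 0, 0 and 0 with only the 4- and 6-month libraries, against 129, 43 and 86. Rises were 33.3% of calls, but 17.9% with library totals and 50.4% with upper quartile scaling (60 and 59). Without 371, 349 and 365, 56 genes fell, and without these, 339 at 2 months and 357 at the end of exposure, 272 were called and 146 rose. Of 2 settings chosen after the data were seen, leaving out 336 and 349 gave 49 calls, 29 up and 20 down, and the muscle covariate gave 0, 0 and 0. Leaving out each library gave 0 to 267 calls, 0 to 116 rises and 0 to 192 falls. Of 1913 values of named genes under 27 settings, 1144 kept their direction and their side of the threshold, passed or not, 739 no longer passed, 27 passed where they had not, and 3 reversed: Gprc5a at 0.05 with quality weights and at 0.08 without 336 (-0.77 to 0.08 over the libraries left out), and Ckm at -0.91 with the muscle covariate. Hspa5, Hyou1 and Creld2 each passed in 23 of the 27. No paired analysis was possible because each animal number occurs in 1 group only. The depth of 15.6 to 37.6 M counts limits genes of few counts most, such as Gprc5a.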

Other observations

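Housekeeping and stromal lists not described above gave these values for 6 against 4 months. Of 36 respiratory chain and ATP synthase genes none passed, 31 had a log2 fold change above 0, 6 were higher at an unadjusted p under 0.05 (5.97% of all genes tested), and the median was 0.14. Of 36 cytosolic ribosomal protein genes none passed, 30 were above 0, 5 were higher at an unadjusted p under 0.05, and the median was 0.20. Of 20 fibroblast and matrix genes none passed, 17 were above 0 and the median was 0.54. All 10 adipocyte genes measured were above 0 with a median of 1.02, and none passed. Animal 368 was the highest 6-month library for each adipocyte gene, as for Car3 (370.8 CPM against 20.97 to 128.3 in the others). It was also the highest for most fibroblast and matrix genes, as for Col3a1 (70.57 against 7.257 to 13 CPM), but not for Fbln1 and Eln. The part of 368 in these medians was not tested. All 10 erythroid genes measured were below 0 with a median of -0.85, and none passed. They are not all separate, since Hbb-bt and Hbb-b2 have the same coordinates and counts.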
